A study of Homo sapiens with 6 samples.

Results

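The MYC, MAX and MXD network is a small family of basic helix-loop-helix leucine zipper transcription factors, and 10 of its genes were followed here as human embryonic stem cells were turned into neurons. The members were chosen by name: MYC, MYCN, MYCL, MAX, MXD1, MXD3, MXD4, MXI1, MNT and MLX each matched 1 entry of the deposited count table, 10 of 61853 entries. The day 30 group held 3 libraries of H9, a widely used line of human embryonic stem cells, that had been differentiated for 30 days toward neurons of the arcuate nucleus of the hypothalamus. Their culture had included sonic hedgehog and its agonist purmorphamine, the receptor inhibitors SB431542 and LDN-193189, then B-27, DAPT (which blocks Notch cleavage), a ROCK inhibitor at replating and BDNF. The day 0 group held 3 libraries of the same line grown on Matrigel before differentiation. Both groups come from a single unmodified line, and nothing in the labels tells whether the 3 replicates of a day were grown apart. The p-values therefore cover the spread between these libraries, which may be technical. Total RNA depleted of ribosomal RNA had been sequenced with a stranded kit.

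MYC proteins bind DNA as pairs with MAX at E-boxes, of which CACGTG is the classic form, and raise transcription of genes for growth, ribosome production and division. MXD proteins and MNT also pair with MAX, occupy the same kind of site and bring the SIN3 and histone deacetylase corepressors. MLX is a second shared partner, which pairs with MXD1, MXD4, MNT and the glucose-sensing proteins MLXIP and MLXIPL. In many tissues MYCN is known from embryonic and progenitor cells, whereas MXD proteins are known from cells that leave the cycle and differentiate.

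Promoter sequences from RefSeq (build GRCh38.p14, 250 bases before to 50 bases after each annotated start) were matched for 9 of the 10 members, with no entry for MYC. The letters CACGTG, which read the same on both strands, occurred in the promoters of MXD4, MNT and MLX. They are shown because their products pair with MAX or with each other at this motif, with the motif in capitals.
MXD4 (chr4:2262060-2262359, minus strand): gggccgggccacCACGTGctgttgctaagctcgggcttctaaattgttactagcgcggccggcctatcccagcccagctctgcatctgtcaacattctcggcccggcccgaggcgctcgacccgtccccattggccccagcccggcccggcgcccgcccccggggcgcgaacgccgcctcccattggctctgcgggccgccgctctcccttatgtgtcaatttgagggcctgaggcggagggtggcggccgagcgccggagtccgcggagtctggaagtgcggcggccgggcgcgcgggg
MNT (chr17:2401011-2401310, minus strand): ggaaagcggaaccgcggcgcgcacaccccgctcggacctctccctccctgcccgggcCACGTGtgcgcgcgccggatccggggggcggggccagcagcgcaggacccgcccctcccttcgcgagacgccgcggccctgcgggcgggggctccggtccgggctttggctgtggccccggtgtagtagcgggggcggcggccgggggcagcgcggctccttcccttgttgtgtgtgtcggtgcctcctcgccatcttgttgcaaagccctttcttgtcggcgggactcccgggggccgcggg
MLX (chr17:42566850-42567149, plus strand): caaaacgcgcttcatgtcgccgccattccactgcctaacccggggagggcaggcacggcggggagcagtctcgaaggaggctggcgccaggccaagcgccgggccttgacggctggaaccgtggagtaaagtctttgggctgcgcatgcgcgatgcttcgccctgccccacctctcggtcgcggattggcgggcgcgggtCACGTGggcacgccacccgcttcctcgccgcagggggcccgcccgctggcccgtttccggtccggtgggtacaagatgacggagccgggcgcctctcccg
The motif began 238 bases before the annotated start of MXD4, 193 bases before that of MNT and 50 bases before that of MLX. Of 35116 promoters of this length, 7.26% held it. Counted by gene, it was in 3 of the 9 matched members and in 8.77% of 27305 genes with a promoter entry. No CACGTG was found in these windows for MYCN, MYCL, MAX, MXD1, MXD3 or MXI1. A match describes the letters only.

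Total counts were 5013643 to 12924842 in day 30 libraries and 7178453 to 8794008 in day 0 libraries. Levels below are CPM (counts scaled to a library's total count) or, wherever genes are compared with each other, RPKM (CPM per kilobase of annotated exon). All 10 members passed the filter on low counts, with 19 to 666.5 counts in a library. By summed level, the 12 pluripotency markers were at 102 to 142 CPM on day 30, against 6559 to 6848 CPM on day 0. The 13 pan-neuronal markers were at 7759 to 9371 CPM on day 30, against 237 to 255 CPM on day 0, and the 17 hypothalamic and arcuate markers at 3445 to 5247 CPM on day 30, against 12.3 to 13.4 CPM on day 0. On day 30 the hypothalamic and arcuate sum lay mostly in SST (mean 2140 CPM) and POMC (1559 CPM). RAX, AGRP, NPY, GHRH and KISS1 had day 30 means of 0.03, 0.24, 0.62, 0.54 and 0.20 CPM. The 12 cell cycle genes summed to 43.5 to 82.4 CPM on day 30 and 2182 to 2295 CPM on day 0. Day 30 replicate 3 stood apart in markers of mesenchymal and neural crest cells, which summed to 179, 648 and 4602 CPM in day 30 replicates 1 to 3, against 226, 314 and 279 CPM on day 0. Of these 9 markers FOXD3 was at 0 on day 30 and DCN at 0 on day 0. The sum of day 30 replicate 3 lay mostly in the collagens COL1A1, COL1A2 and COL3A1, at 1814, 1830 and 902 CPM. TWIST1 and TFAP2A were at 1.20 CPM each in that library, so the sum does not show a rise of neural crest markers. The part of the 9 markers in the results was not tested. In a mixed culture, fewer cells of a type and less RNA per cell cannot be told apart.

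RNA of the MYC members was lower and RNA of MAX and most of its repressor partners was higher in the neurons. All 3 MYC genes and MLX fell on day 30, MAX, MXD1, MXD4, MXI1 and MNT rose, and MXD3 did not pass the test. In counts, 5 of 10 members rose and 4 fell at an adjusted p under 0.05 (edgeR quasi-likelihood test, Benjamini-Hochberg over all 18040 genes tested). The change between the days was wide, as 39.8% of tested genes rose and 36.8% fell, 76.6% in all, so 9 of 10 called is near this background. The CPM of day 30 and day 0 did not overlap for the same 9 members, 5 higher and 4 lower on day 30, against 79.4% of tested genes (43.5% higher and 35.9% lower). The median log2 change was 0.30 for the members and 0.08 for all genes tested. Each of the 9 calls stood with the same direction in all 13 alternative settings, among them the fit without day 30 replicate 3.

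**Figure D1:**
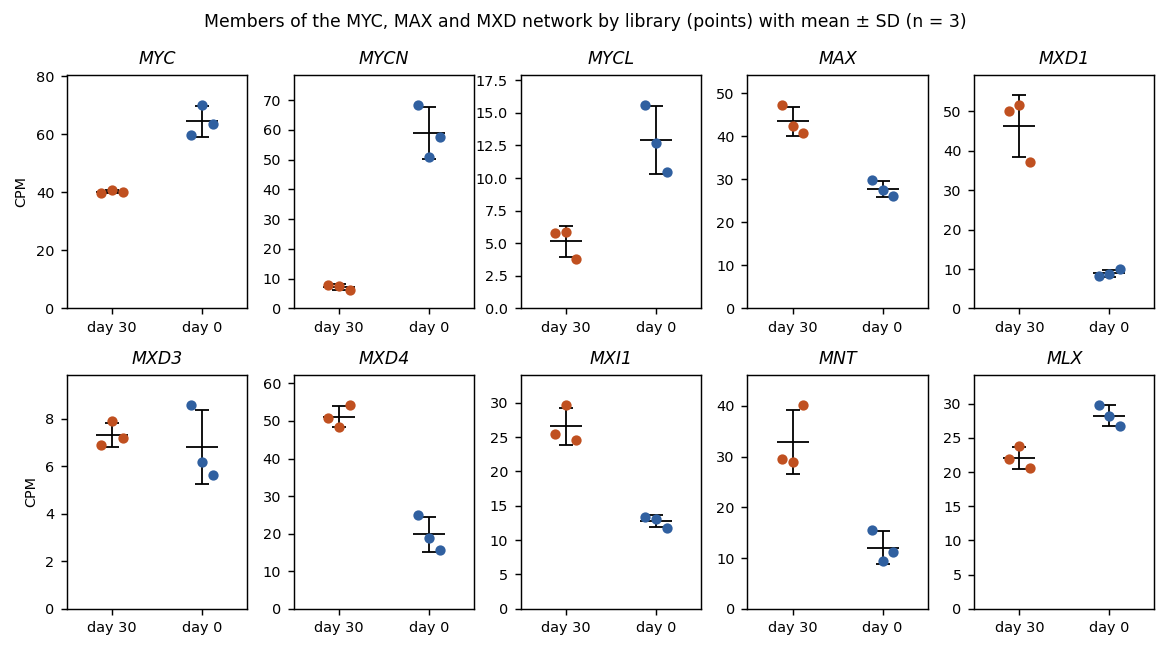
CPM of each of the 10 members in every library (points) with the mean and SD of 3 libraries, day 30 in orange and day 0 in blue, each panel on its own axis from 0. Points of the days are separate in every panel except MXD3, with day 30 lower for MYC, MYCN, MYCL and MLX and higher for MAX, MXD1, MXD4, MXI1 and MNT.

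MYCN (ENSG00000134323.13, chromosome 2, 15940564 to 15947007, hg38, plus strand), the MYC paralog of embryonic and neural progenitor cells, had the largest change among the members. It had 7.95, 7.58 and 6.18 CPM in the day 30 libraries and 68.3, 51.0 and 57.4 CPM in the day 0 libraries. Every day 30 library lay far below every day 0 library. The log2 fold change was −3.08 ± 0.16 (SE, n = 3 per day, edgeR adjusted p = 2.85e-08), and 6.7% of all tested genes had a lower value. MYCNOS, an antisense transcript that shares 98 exon bases with the start of MYCN on the other strand, had 0, 0 and 0 counts on day 30 and 15, 7 and 9 counts on day 0. Against a floor of 3 counts over the day 30 group it was at least 12.0-fold lower, and it did not pass the filter for testing.

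MYC (ENSG00000136997.21, chromosome 8, 127735434 to 127741434, plus strand), the broadly expressed paralog, fell. It had 39.8, 40.8 and 40.1 CPM on day 30 and 59.7, 70.1 and 63.7 CPM on day 0. The day 30 libraries were nearly alike, with an SD of 1.20% of the mean, against 8.13% on day 0. The log2 change was −0.77 ± 0.12 (edgeR adjusted p = 0.00014). Its 95% interval was −1.04 to −0.51 and that of MYCN −3.44 to −2.73, and the difference between the genes was not tested.

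MYCL (ENSG00000116990.11, chromosome 1, 39895426 to 39902256, minus strand), the third paralog, had the lowest RPKM of the MYC genes on both days. It had 5.78, 5.88 and 3.79 CPM on day 30 and 15.6, 12.7 and 10.5 CPM on day 0. The groups were separate, with the lowest day 30 value in replicate 3, which had the fewest counts. Its log2 change was −1.36 ± 0.23 (edgeR adjusted p = 0.00027).

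MAX (ENSG00000125952.20, chromosome 14, 65006174 to 65102695, minus strand), the partner that MYC, MXD and MNT proteins share, rose. It had 47.3, 42.5 and 40.7 CPM on day 30 and 29.8, 27.4 and 26.0 CPM on day 0. The groups were separate by a margin larger than the spread within either. edgeR gave a log2 change of 0.56 ± 0.12 (adjusted p = 0.00171), 1.57-fold in mean CPM.

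**Figure D2:**
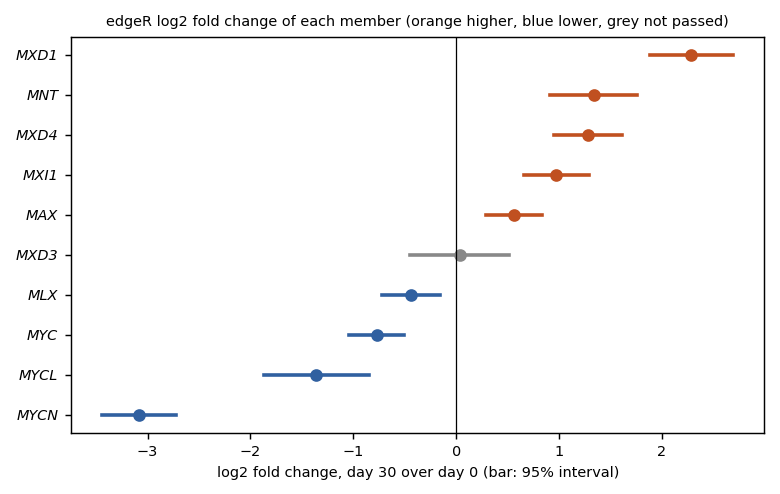
log2 fold change of each member, day 30 over day 0, from edgeR, with the 95% interval (n = 3 libraries per day). Members run from MXD1 at 2.28 to MYCN at −3.08, and the interval of MXD3 alone spans 0, from −0.45 to 0.52.

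Among the MXD repressors, MXD1 (ENSG00000059728.11, chromosome 2, 69897688 to 69942945, plus strand) had the largest rise in the counts as deposited. It had 50.01, 51.6 and 37.1 CPM on day 30 and 8.18, 8.71 and 9.89 CPM on day 0. All day 30 libraries were well above day 0, with replicate 3 the lowest of them. The log2 change was 2.28 ± 0.18 (edgeR adjusted p = 8.11e-07), and 15.5% of tested genes had a higher value. MXD1 shares 237 exon bases with the splicing gene SNRNP27 on the same strand, and both carried the same fractions of a read in 4 libraries, so some reads were split between them. With the whole SNRNP27 count taken off MXD1 on day 30 only, the most that an equal split could have added, MXD1 would be at 19.5, 21.8 and 13.0 CPM on day 30, still above the full day 0 values, and the log2 ratio of means would be 1.02. At that bound its rise would be below the 1.28 of MXD4, so the rank of MXD1 depends on how the shared reads were split.

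MXD4 (ENSG00000123933.17, chromosome 4, 2247432 to 2262294, minus strand), whose promoter is printed above, rose. It had 50.8, 48.5 and 54.2 CPM on day 30 and 24.9, 18.8 and 15.8 CPM on day 0. Its day 0 libraries differed more from each other than its day 30 libraries, and the groups did not meet. Its log2 change was 1.28 ± 0.15 (edgeR adjusted p = 1.79e-05). MIR4800, a microRNA gene inside it, had at most 14.5 counts in a library.

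MXI1 (ENSG00000119950.21, chromosome 10, 110207605 to 110287365, plus strand), also called MXD2, rose. It had 25.5, 29.6 and 24.5 CPM on day 30 and 13.4, 13.1 and 11.8 CPM on day 0. The lowest day 30 value was well above the highest day 0 value, and the ratio of mean CPM was 2.08. edgeR gave a log2 change of 0.97 ± 0.14 (adjusted p = 0.0001).

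MXD3 (ENSG00000213347.11, chromosome 5, 177301461 to 177312757, minus strand), which in mouse is known from dividing progenitors in S phase, did not pass. It had 6.92, 7.89 and 7.18 CPM on day 30 and 8.57, 6.20 and 5.63 CPM on day 0. The day 30 values lay within the day 0 range. The log2 value was 0.04 ± 0.22 (edgeR adjusted p = 0.887) with a 95% interval of −0.45 to 0.52. This value is uncertain, because MXD3 shares 926 exon bases with RAB24 on the same strand and carried the same fractions of a read in 3 libraries. It also shares 1158 exon bases with PRELID1 on the other strand, and both carried the same fraction of a read in 2 libraries. PRELID1 had 227, 323 and 101 counts on day 30 and 854, 829.5 and 972.5 counts on day 0. With the whole RAB24 count taken off, MXD3 would be at 0.83, 0.93 and 0.60 CPM on day 30 and 1.80, 1.53 and 2.16 CPM on day 0, a log2 ratio of −1.22 with no test. No PRELID1 count was taken off, so reads shared with PRELID1 are not bounded here or in the family sums.

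MNT (ENSG00000070444.15, chromosome 17, 2384060 to 2401118, minus strand), a MAX-binding repressor present in many cell types, rose. It had 29.4, 28.9 and 40.1 CPM on day 30 and 15.6, 9.33 and 11.3 CPM on day 0. Replicate 3 was the highest day 30 library, and every day 30 library was above day 0. The log2 change was 1.34 ± 0.19 (edgeR adjusted p = 7.88e-05), and 1.23 without day 30 replicate 3.

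MLX (ENSG00000108788.12, chromosome 17, 42567068 to 42573239, plus strand), the second shared partner, had the smallest change that passed. It had 21.98, 23.8 and 20.5 CPM on day 30 and 29.8, 28.3 and 26.7 CPM on day 0. The groups were separate by a narrow gap. Its log2 change was −0.44 ± 0.13 (edgeR adjusted p = 0.00922), and −0.35 without day 30 replicate 3 (adjusted p = 0.0377). Its last exons overlap 770 exon bases of PSMC3IP on the other strand, which had 15, 31 and 8 counts on day 30 and 135, 118 and 152 counts on day 0. No fraction of a read was shared between MLX and PSMC3IP. Over the whole table, 7.5% of 547 opposite-strand overlapping pairs shared a fraction in some library, against 90.5% of 264 same-strand pairs, although no source used here gives the strand setting of the counting.

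Set on one scale per length, the order of the members changed between the days. On day 30 MYC had the highest level, 13.4 ± 0.16 RPKM (SD, n = 3), above MAX at 9.82 ± 0.77 RPKM. MXD1 at 7.28 ± 1.25 and MXD4 at 7.25 ± 0.40 RPKM followed and overlapped each other, as did MXI1 at 5.76 ± 0.59 and MLX at 5.19 ± 0.38 RPKM. MNT at 3.76, MYCN at 2.78, MXD3 at 1.42 and MYCL at 1.02 RPKM came next, each separate from its neighbour. On day 0 MYCN at 22.6 ± 3.37 and MYC at 21.5 ± 1.75 RPKM led and overlapped. MLX at 6.64 and MAX at 6.27 RPKM formed the next overlapping pair. MXD4 at 2.81, MXI1 at 2.77 and MYCL at 2.55 RPKM overlapped in turn, and so did MXD1 at 1.41, MNT at 1.38 and MXD3 at 1.32 RPKM at the bottom of the order. The places of MXD1 and MXD3 in both orders depend on the split of their shared reads. Both orders also depend on the length used for each gene. Annotated exons and the longest transcript span 3001 and 2366 bases for MYC, but 2602 and 2602 for MYCN. For MXD3 they span 5154 and 2279 bases, and for MXD4 7058 and 4228. The orders were not computed with the longest transcript.

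The sum over MYC, MYCN and MYCL was 17.5, 17.7 and 16.5 RPKM on day 30 and 49.2, 45.5 and 45.4 RPKM on day 0, a day 30 to day 0 ratio of 0.369. The sum over MXD1, MXD3, MXD4 and MXI1 was 21.9, 23.0 and 20.2 RPKM on day 30 and 9.40, 8.08 and 7.45 RPKM on day 0, a ratio of 2.61. In the counts as deposited the MYC sum was below the MXD sum in each day 30 library and above it in each day 0 library. MYC family over MXD family was 0.796, 0.770 and 0.815 on day 30 and 5.24, 5.62 and 6.09 on day 0. The day 30 order turned when the whole counts of SNRNP27, RAB24 and MIR4800 were taken off MXD1 (on day 30 only), MXD3 and MXD4. The ratio was then 1.105, 1.054 and 1.095 on day 30 and 6.15, 6.37 and 6.70 on day 0. So which sum was larger on day 30 depends on how the shared reads were split, whereas the ratio was lower on day 30 either way. With MNT added to the repressors, in the counts as deposited, the ratio was 0.676 ± 0.013 on day 30 and 4.85 ± 0.41 on day 0. Relative to MAX, the MYC sum was 1.76 ± 0.11 on day 30 and 7.46 ± 0.22 on day 0. These are ratios of RNA over members chosen with results known, and carry no test. With each gene's longest annotated transcript as its length, MYC family over MXD family was 0.684 on day 30 and 4.20 on day 0.

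**Figure D3:**
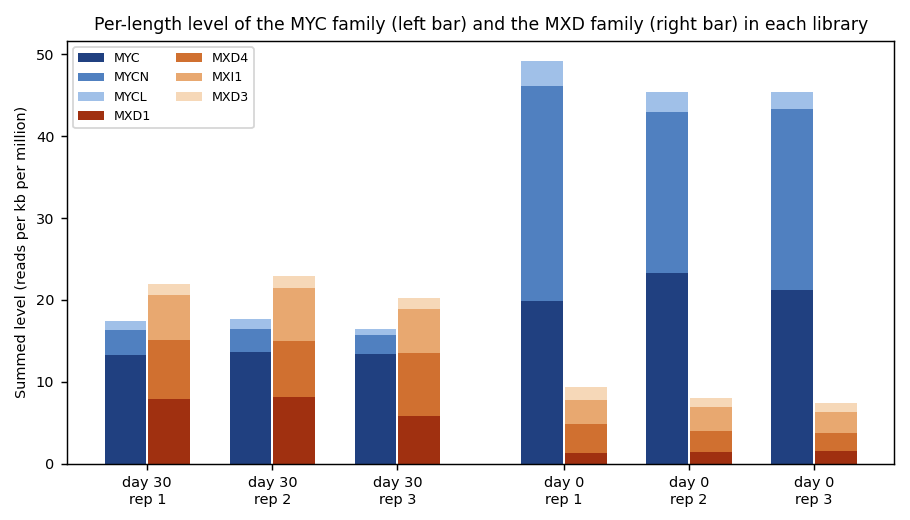
Summed RPKM in each library, MYC family in blue (left bar) and MXD family in orange (right bar), stacked by gene, with day 30 libraries at left and day 0 libraries at right. The blue bars stand at 16.5 to 17.7 on day 30 and 45.4 to 49.2 on day 0, and the orange bars at 20.2 to 23.0 on day 30 and 7.45 to 9.40 on day 0.

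The makeup within each family moved as well. MYC made up 76.0%, 76.9% and 81.0% of the MYC family sum on day 30 and 40.4%, 51.4% and 46.8% on day 0. MYCN made up 16.1% ± 1.57 on day 30 and 48.4% ± 5.12 on day 0, and MYCL made up 5.88% ± 1.16 on day 30 and 5.44% ± 0.85 on day 0. So per length of annotated exon, RNA of MYC and MYCN stood near parity in stem cells, whereas their ratio on day 30 was 4.35, 4.66 and 5.62. In the MXD family, MXD1 made up 33.4% ± 3.91 on day 30 and 17.2% ± 3.60 on day 0 as deposited. With the neighbours' whole counts taken off as above, it made up 17.8% ± 3.74 on day 30 and 19.5% ± 3.46 on day 0. This bound lowers the MXD1 counts on day 30 only, so its shares on the 2 days are not like for like. MXD3 made up 6.56% ± 0.40 on day 30 and 15.8% ± 1.69 on day 0 as deposited. With those counts taken off, MXD3 made up 0.95% ± 0.16 on day 30 and 4.91% ± 1.12 on day 0. As deposited, MXD4 made up 33.5% ± 4.05 on day 30 and 33.5% ± 3.86 on day 0, while MXI1 made up 26.5% ± 1.42 on day 30 and 33.5% ± 2.25 on day 0.

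For 3 members the tested genes with the most similar pattern were sought, by the root mean square distance between log2 CPM in the 6 libraries, each centred on its gene's mean, over 11138 genes with a mean log2 CPM of at least 3. CCNJ, MRPL35 and THG1L lay nearest to MYC, at distances of 0.032 to 0.036. The nearest to MYCN were H2BC5, H2BC15 and CDYL (0.076 to 0.14). H2BC5 and H2BC15 belong to a histone gene family of near-identical copies, so the counts of each are uncertain, as are those of the small nuclear RNA entry RNU2-2P, which held fractions of a read. CPEB4, PREPL and RNU2-2P lay nearest to MXD1 in the counts as deposited (0.079 to 0.088). Which genes lie nearest to MXD1 also depends on how its reads were split with SNRNP27. With 3 libraries a day, genes with a like difference between the days lie near each other on this measure.

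Around the network, 2 of the 3 related proteins outside the members fell and 0 rose in the test, against 36.8% and 39.8% of all tested genes. MGA, a MAX partner that also carries a T-box domain, was at 209 ± 6.26 CPM on day 30, against 241 ± 8.84 CPM on day 0, with a log2 change of −0.30 (edgeR adjusted p = 0.0251). That call was lost with total counts only, with no filter on low counts, and without day 30 replicate 2 or 3 or day 0 replicate 2 or 3, at adjusted p of 0.05375 to 0.0775. MLXIP (MondoA), the main MLX partner in many tissues, had 47.3 ± 7.28 CPM on day 30 and 39.6 ± 5.10 CPM on day 0, which did not pass (log2 value 0.16, adjusted p = 0.299). MLXIPL (ChREBP), its paralog of liver and fat, fell to 0.52, 0.46 and 0.20 CPM on day 30, against 5.28, 2.37 and 1.37 CPM on day 0, with a log2 change of −2.82 ± 0.57 (edgeR adjusted p = 0.000954). It held 5, 6 and 1 counts on day 30 and passed the filter on low counts through day 0 alone, so its direction was fixed by the filter.

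The corepressors that MXD proteins recruit fell in most cases. Of 14 tested, 8 fell and 1 rose, against 36.8% and 39.8% of all tested genes, with a median log2 change of −0.56. SIN3A, the scaffold that the MXD amino terminus binds, was at 47.4 ± 0.95 CPM on day 30, against 119 ± 10.0 CPM on day 0 (log2 change −1.41 ± 0.10). The deacetylase HDAC1 fell by 1.497 on the log2 scale. ARID4A, another subunit of SIN3 complexes, rose to 90.2 ± 1.43 CPM on day 30, against 24.6 ± 5.82 CPM on day 0 (log2 change 1.79 ± 0.14). NCOR1, a scaffold of other deacetylase complexes, was nearest to 0 at −0.01 (adjusted p = 0.92).

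Coactivators and partners of MYC fell in 11 of 19 tested genes and rose in 3, against 36.8% and 39.8% of all tested genes. The median was −0.29, and 7 fell without day 30 replicate 2. SMARCB1 held no reads in any library of the deposited counts and was not tested, which does not show that the gene was silent. ACTL6A, an actin-like subunit shared by chromatin complexes, was at 11.1 ± 0.24 CPM on day 30, against 59.6 ± 2.68 CPM on day 0 (log2 change −2.52 ± 0.13). RUVBL1, an ATPase of the TIP60 complex, fell by 2.10. BIN1, which binds MYC and also shapes membranes in neurons and muscle, rose to 148 ± 16.9 CPM on day 30, against 22.9 ± 2.72 CPM on day 0 (log2 change 2.60 ± 0.12). ZBTB17 (MIZ1), through which MYC represses genes, rose by 0.93. The elongation kinase CDK9 was at −0.02 (adjusted p = 0.907).

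Genes that set the stability of MYC proteins split, with 9 of 20 lower, 6 higher and a median of −0.19. Over all tested genes 36.8% were lower and 39.8% higher, so these counts are near the background. AURKA, a mitotic kinase that also protects MYCN from degradation, was at 4.05 ± 0.73 CPM on day 30, against 98.8 ± 10.5 CPM on day 0 (log2 change −4.74 ± 0.17). PLK1, another mitotic kinase, fell by 3.95. Both are cell cycle genes, and MKI67, the proliferation marker, was at 10.7 ± 6.29 CPM on day 30, against 288 ± 45.2 CPM on day 0. Whether fewer dividing cells account for these falls was not tested. GSK3B, the kinase whose mark on MYC leads to its destruction, rose to 230 ± 13.9 CPM on day 30, against 102 ± 10.9 CPM on day 0 (log2 change 1.09 ± 0.11), and the ubiquitin ligase subunit BTRC rose by 1.06. FBXW7, the ligase subunit that reads the GSK3 mark, and USP28, the deubiquitinase that opposes it, were chosen after their values were seen. Their directions therefore do not stand for the list. FBXW7 rose to 85.9 ± 7.88 CPM on day 30, against 52.6 ± 4.77 CPM on day 0 (log2 change 0.62 ± 0.12). USP28 was at 18.8 ± 3.83 CPM on day 30, against 205 ± 4.81 CPM on day 0 (log2 change −3.55 ± 0.15). The other calls of this list were falls of SKP2, USP7, USP36, PPP2R5A, CIP2A and SET and rises of TRIM32, FBXL14 and USP22. Whether the list as a whole moved toward more or less stable MYC proteins was not tested. Protein levels were not measured.

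Textbook MYC target genes of growth and metabolism fell in 38 of 38 tested cases, with a median log2 change of −1.92. Of all tested genes 36.8% fell. The list was drawn up with earlier results known, among them the falls of several nucleolar genes, so its direction is a description. HK2, the first enzyme of glycolysis, was at 1.34, 2.17 and 5.59 CPM on day 30, against 60.1, 51.7 and 76.6 CPM on day 0 (log2 change −4.67 ± 0.35). PAICS, an enzyme of purine synthesis, was at 41.98 ± 2.50 CPM on day 30, against 586 ± 49.7 CPM on day 0 (log2 change −3.90 ± 0.14). CACGTG occurred in the promoters of 15 of the 35 genes of this list with a promoter entry, against 8.77% of 27305 genes in the table.

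Target genes of cell division fell in 15 of 16 cases, against 36.8% of all tested genes, with a median of −3.68. MCM5, a helicase subunit of DNA replication, fell to 2.55 ± 1.20 CPM on day 30, against 216 ± 6.72 CPM on day 0 (log2 change −6.63 ± 0.23). TERT, the catalytic subunit of telomerase, had no reads on day 30 and 14.7, 10.3 and 6.03 CPM on day 0, at least 93.5-fold lower against a floor of 3 counts over the day 30 group. TERT and E2F2, a factor that drives entry into S phase, passed the filter through day 0 alone, so they could only fall. The list median was the same with TERT set to its bound. The exception was ID2, an inhibitor of basic helix-loop-helix proteins, which rose to 79.8, 61.3 and 36.7 CPM on day 30, against 5.93, 5.57 and 8.30 CPM on day 0 (log2 change 3.08 ± 0.30).

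Genes that MYC is known to repress rose in 8 of 14 tested cases and fell in 3, with a median of 0.58. Over all tested genes 39.8% rose and 36.8% fell. NDRG4, a gene prominent in brain, rose to 597 ± 27.2 CPM on day 30, against 18.8 ± 1.74 CPM on day 0 (log2 change 4.89 ± 0.14), and the phosphatase DUSP1 by 3.04. The integrin ITGA6 fell by 0.62. CDKN1A, the p21 inhibitor of the cell cycle, had 34.0, 66.4 and 62.1 CPM on day 30 and 78.0, 72.9 and 70.4 CPM on day 0, with a log2 change of −0.54 (adjusted p = 0.0296). That call was lost without day 0 replicate 2 (0.0561) or 3 (0.0519) and with total counts only (0.0777). Without either of those libraries 1 gene of this list fell. GADD45A, a stress gene, was at 0.06 (adjusted p = 0.789).

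Reported targets of MLX and its glucose-sensing partners showed no common direction, with 1 of 8 tested higher, 3 lower and a median of −0.35. The shares of all tested genes were 39.8% higher and 36.8% lower. ARRDC3, an arrestin-related gene, rose to 71.2 ± 2.43 CPM on day 30, against 19.2 ± 2.50 CPM on day 0 (log2 change 1.80 ± 0.12). KLF10, a zinc finger factor, fell by 2.14 and the death receptor adaptor FADD by 1.31, while ACACA, which makes malonyl-CoA, was at −0.04 (adjusted p = 0.891). TXNIP, the best known target and chosen after its values were seen, had 55.8, 58.8 and 89.8 CPM on day 30 and 88.0, 90.1 and 74.9 CPM on day 0, with overlapping ranges (log2 change −0.41, adjusted p = 0.0368). Its call was lost without day 30 replicate 1 or 2 or day 0 replicate 1 or 2, at adjusted p of 0.0504 to 0.156, with total counts only (0.12) and with upper quartile factors (0.0558).

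**Figure D4:**
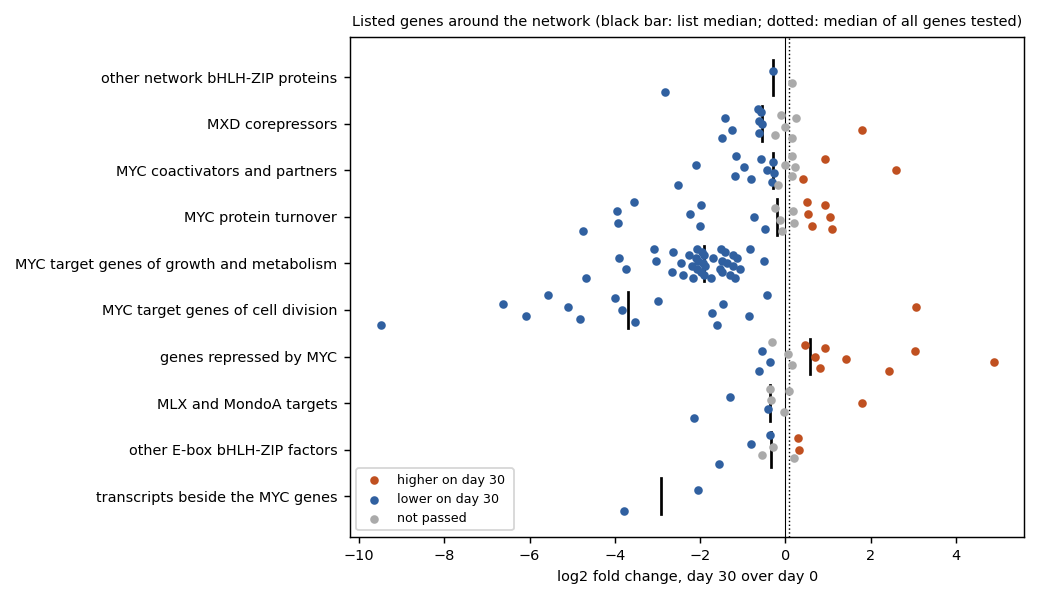
log2 fold change (day 30 over day 0) of every tested gene of 10 lists around the network, with calls in colour, the list median as a black bar and the median of all tested genes, 0.08, as a dotted line. Growth and metabolism targets lie wholly to the left with a median of −1.92, and genes repressed by MYC lie mostly to the right with a median of 0.58. TERT, the point farthest left, had no reads on day 30, so its fitted value is no bound.

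Transcripts that lie beside the MYC genes were low or fell. PVT1, a long non-coding RNA next to MYC, had 25.5, 39.0 and 52.6 CPM on day 30 and 189, 148 and 111 CPM on day 0, with a log2 change of −2.04 ± 0.23 (edgeR adjusted p = 1.33e-05). Its counts held fractions of a read, so some reads were shared with other entries. The log2 change of MYC was −0.77 on the same scale, and the difference between the genes was not tested. CCDC26, farther along the same chromosome, held 5 counts over day 30 and 62 over day 0 (log2 change −3.80 ± 0.64), and it too passed the filter through day 0 alone, so it could only fall. CASC11 held 3 counts over day 30 and 5 over day 0, and MYCLP1, a MYCL pseudogene, 0 over day 30 and 3 over day 0. MYCNUT held no reads.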

How the data were processed

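The members and all gene lists were chosen with earlier results of these data known. Per the labels' protocols, TRIzol RNA went through ribosomal RNA depletion and a stranded total RNA kit before NovaSeq sequencing. The authors deposited 1 table of estimated counts per Ensembl gene for 61853 entries and 6 libraries. Of its values 92.6% are whole numbers and the rest hold fractions of a read. The submitters' processing notes list FastQC 0.11.9 and the build hg38. The aligner, counter, annotation and strand setting were not given in the sources used here.

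Symbols, positions and exon lengths came from GENCODE 29 (58298 entries with a length, 94.3%). CPM is the count scaled to a library's total count, without further normalization, and RPKM divides it by the kilobases of merged exons. Counts were rounded and tested with edgeR 4.0.16 in R 4.3.3 (TMM factors, filterByExpr, 2-sided quasi-likelihood test of day 30 over day 0 on the 6 libraries, no covariates, Benjamini-Hochberg over 18040 genes, threshold 0.05). The SE was taken from the log2 change and its F statistic, and intervals are 95%. The biological coefficient of variation was 0.153. The code was tested on simulated counts. Intervals and floors (3 counts over a group) for genes at 0 cover counting error only.

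Alternatives were DESeq2 1.42.0, limma-voom (limma 3.58.1), total counts only, upper quartile factors, no filter, a stricter filter, a replicate block and each of 6 libraries left out. Family ratios were also computed with other gene lengths and scaling. Removal of the whole SNRNP27 (day 30 only), RAB24 and MIR4800 counts was added after seeing the data.

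Named genes followed a rule: all 10 members, and of each pathway list the passing genes with the largest rise and fall (up to 2 each way) and the gene nearest to 0 that did not pass, with every gene of the shortest lists and every gene annotated over a member. 1 gene that the rule names is not reported here. Of 154 listed pathway genes 152 were found in the table.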

Additional observations from a re-analysis of the deposited data

How the results depend on the processing

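The 5 rises and 4 falls among the members held their call and direction under DESeq2, limma-voom, other scalings, other filters, the replicate block and each library left out. Over all genes 6783 to 7441 rose and 6351 to 6718 fell when 1 library was left out, and 9147 rose and 7692 fell with no filter. Same-numbered libraries of the days did not deviate together (correlations of 0.075, −0.004 and −0.052), so they were not taken as pairs. With the replicate block 6921 genes rose and 6415 fell, and the calls of MGA (adjusted p = 0.0651), SREBF2 (0.0554) and USF1 (0.0785) were lost.

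Counts in short lists moved, and their cause was not tested. With total counts only, 1 of the other network proteins fell (2 as reported; 1 with no filter, 1 with the replicate block, 1 to 2 with a library left out), 7 coactivators fell (11 as reported; 7 with the block, 7 to 10 with a library left out) and 1 repressed gene fell (3 as reported, 1 to 3 with a library left out). Corepressors that rose numbered 2 with total counts only, upper quartile factors, the stricter filter and limma-voom, and 1 to 2 with a library left out. Of the other E-box factors 1 rose with DESeq2, 1 with no filter and 0 with the block, and 0 to 2 with a library left out.

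Log2 values near 0 changed sign. With total counts only NCOR1 was at 0.082, CDK9 at 0.075 and ACACA at 0.040. Upper quartile factors gave 0.012 for NCOR1 and 0.0071 for CDK9, and limma-voom 0.0071 for ACACA. With a library left out, MXD3 spanned −0.066 to 0.16, NCOR1 −0.073 to 0.034, CDK9 −0.061 to 0.031, GADD45A −0.10 to 0.29 and ACACA −0.24 to 0.094. With the whole SNRNP27 count taken off MXD1 on day 30 only, a bound, its log2 ratio of means was 1.02. With the whole RAB24 count taken off MXD3 on both days it was −1.22.

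With the longest transcript as length, the day 30 to day 0 ratio was 0.397 for the MYC sum and 2.41 for the MXD sum, and MYC over MXD was 0.684 on day 30 and 4.20 on day 0. The whole counts of SNRNP27 (day 30 only), RAB24 and MIR4800 were also taken off, a bound chosen after seeing the data. The MXD sum ratio was then 2.17 and MYC over MXD was 1.085 on day 30 and 6.41 on day 0. TMM scaling gave 0.346 for the MYC sum. With a library left out the MXD sum ratio was 2.49 to 2.80. Total counts only moved the median of all genes by 0.09. MYCL on day 30 had 19 to 76 counts, which limits its precision.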

Other observations

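Other basic helix-loop-helix zipper factors that read E-boxes without MAX changed in both directions. Of 8 tested, 2 were higher and 3 lower, against 39.8% and 36.8% of all tested genes, with a median log2 change of −0.33. TFAP4, itself a known MYC target, was at 6.92 ± 0.41 CPM on day 30, against 19.0 ± 0.29 CPM on day 0 (log2 change −1.56, edgeR adjusted p = 5.5e-06). SREBF1, which drives lipid synthesis, had 10.5, 10.1 and 11.9 CPM on day 30 and 24.2, 17.5 and 11.6 CPM on day 0, with overlapping ranges (log2 change −0.80). SREBF2, which drives cholesterol synthesis, had a log2 change of 0.30 (adjusted p = 0.0176) and USF1, a widespread E-box factor, of 0.31 (adjusted p = 0.0475), whereas USF2 was at 0.22 (adjusted p = 0.16). The call of SREBF2 was lost with no filter on low counts and without day 30 replicate 1 or 2 or day 0 replicate 1 or 2, at adjusted p of 0.0534 to 0.0934. The call of USF1 was lost with DESeq2, with no filter, and without day 30 replicate 1 or 2 or day 0 replicate 1 or 3, at adjusted p of 0.0804 to 0.201. Without day 30 replicate 2, 0 genes of this list rose. Without day 30 replicate 1 or day 0 replicate 1 the 1 gene that rose was TFEC, not tested with all libraries.

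CACGTG stood in the promoters of 5 of 13 cell division targets, 4 of 12 repressed genes, 3 of 8 MLX targets, 3 of 14 coactivators, 4 of 16 turnover genes and 1 of 12 corepressors with a promoter entry, and in 0 of 8 of the other E-box factors. Over all 27305 genes with a promoter entry the share was 8.77%.

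Listed markers of other cells had reads on both days, but their sums do not show that those cell types were present. Neural progenitor genes summed to 912 to 1143 CPM on day 30 and 1244 to 1976 CPM on day 0, astroglial genes to 276 to 397 CPM on day 30 and 716 to 1130 CPM on day 0, oligodendroglial genes to 30.9 to 61.3 CPM on day 30 and 126 to 189 CPM on day 0, and endodermal genes to 1.08 to 1.40 CPM on day 30 and 10.6 to 17.2 CPM on day 0. On day 30 the astroglial sum lay mostly in SLC1A2 (mean 238 CPM) and GJA1 (112 CPM). GFAP, AQP4, ALDH1L1, S100B and SLC1A3 had means of 0.61, 0.26, 0.15, 0.58 and 5.07 CPM. The progenitor sum on day 30 lay mostly in VIM (659 CPM) and NES (346 CPM), with SOX1 at 16.95 and PAX6 at 0.08 CPM. HES5 and MOG were at 0 on both days.

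The other genes annotated over members had few or no reads on the member's exons. MYCL-AS1, antisense to MYCL, had 0, 3 and 1 counts on day 30 and none on day 0. CHURC1-FNTB, FNTB and MIR4706 lie over introns of MAX with no shared exon base. An antisense entry over MAX (ENSG00000259118) and another over MNT (ENSG00000262456) held no reads, and entries over MXI1 (ENSG00000228417 and the pseudogene ENSG00000214067) held at most 8 counts in a library.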
